A study of Mus musculus with 9 samples.

Results

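A set of 10 genes of the enteroendocrine cell were followed in bulk RNA from mouse jejunum: the granins Chga and Chgb, the peptide hormone genes Gcg, Gip, Cck, Sst, Nts, Sct and Ghrl, and Tph1, which makes serotonin. These 10 members were taken by symbol from the 21868 genes of the count table, and no measured value enters that rule, although the genes were chosen with earlier results of these data known. All 10 passed the filter on low counts, as did 14668 genes in all. Enteroendocrine cells are scattered singly among the enterocytes of the villus and crypt. They sense nutrients in the lumen or the blood and release hormones from dense-core granules into the circulation or onto neighbouring cells and nerves. Granins help to build those granules, so their transcripts are shared by most endocrine lineages, whereas each hormone marks some of them: I and K cells make Cck and Gip, D cells make somatostatin, L cells and N cells make Gcg and Nts, S cells make secretin, X cells make ghrelin, and enterochromaffin cells make serotonin.

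The labels give 3 groups of mice: sham treatment, TPN (total parenteral nutrition, feeding by vein that bypasses the gut lumen) and starvation. Each treatment lasted 24 h, after which a 5 cm piece of jejunum was taken. Each group has 3 libraries, labelled as biological replicates. The labels do not state strain, age, sex or what the sham treatment consisted of. The piece was whole tissue, so a lower transcript level in it cannot be told apart from fewer cells of that type, and sites of RNA outside the epithelium, such as enteric neurons, are included.

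Total counts ran from 7779877 to 12084278 per library, and a lone read came to between 0.0798 and 0.119 CPM (reads scaled by library total and TMM factor). Some libraries stood apart in the RNA of other cell types. Summed smooth muscle markers (10 genes) were 9370 CPM in sham replicate 2 against 498 to 1400 CPM in the other 8 libraries. Summed villus tip markers (8 genes) were 105000 CPM in starvation replicate 3 and 75900 CPM in sham replicate 2, against 23200 to 38000 CPM elsewhere. Summed pancreatic acinar markers (10 genes) were 17800 CPM in TPN replicate 2, 3470 CPM in sham replicate 1, 2390 CPM in starvation replicate 1 and 327 CPM in TPN replicate 1, and 16.7 to 23.6 CPM in the remaining 5. Starvation replicate 3 was also low in crypt markers, with summed stem cell markers (6 genes) at 139 CPM against 512 to 976 CPM in the other 8 libraries and summed Paneth cell markers (4 genes) at 495 CPM against 1790 to 4020 CPM. Calls that rest on sham replicate 2 or starvation replicate 3 are given with and without them.

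The upstream sequences of 3 members are shown because their RNA levels carried the called differences between groups. Those of Cck and Chga are the 250 bases before the transcription start in the RefSeq annotation of GRCm38.p6, read 5′ to 3′ on the gene's own strand. For Sst only 30 bases around the match are shown, cut from the window of 250 bases (23890845 to 23891094), because GENCODE places part of that window in the UTR of Sst. Capitals mark matches, on either strand, to a cAMP response element (TGACGTCA), its long variant (TGACGTAA) and its short variant (TGCGTCA), none of which overlaps another in these windows. They also mark the E-box with the core CG (CACGTG), that with the core GC (CAGCTG) and that with the core AT (CAGATG). Cyclic AMP response elements are bound by CREB-type factors and E-boxes by basic helix-loop-helix factors, the class to which NEUROD1 belongs. The variants of the response element and the E-box with the core CG were added to the search after the sequences had been seen.
Cck, chr9:121495695-121495944, minus strand: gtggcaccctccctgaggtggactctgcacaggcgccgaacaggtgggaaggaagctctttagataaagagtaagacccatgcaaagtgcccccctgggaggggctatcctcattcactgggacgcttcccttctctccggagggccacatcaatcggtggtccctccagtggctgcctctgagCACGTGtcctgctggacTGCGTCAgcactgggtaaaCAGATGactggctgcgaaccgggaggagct
Chga, chr12:102554691-102554940, plus strand: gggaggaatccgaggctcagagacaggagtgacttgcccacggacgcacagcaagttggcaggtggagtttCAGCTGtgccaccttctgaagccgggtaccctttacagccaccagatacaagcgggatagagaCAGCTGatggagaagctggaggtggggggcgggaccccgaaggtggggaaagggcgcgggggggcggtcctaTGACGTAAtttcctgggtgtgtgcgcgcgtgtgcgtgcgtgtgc
Sst, chr16:23890874-23890903, minus strand: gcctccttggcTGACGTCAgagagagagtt

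In Cck the CAGATG began 30 bases, the TGCGTCA 49 bases and the CACGTG 66 bases before the start. In Chga the TGACGTAA began 44 bases before the start, with CAGCTG at 116 and 179 bases. In Sst the TGACGTCA began 48 bases before the start, and in Chgb, whose window is not shown, a TGACGTCA began 72 bases before it. Each motif was searched in the whole window of 250 bases, also for Sst, and over all 32851 RefSeq windows of that length TGACGTCA was found in 1.55%, TGACGTAA in 0.447%, TGCGTCA in 1.75%, CACGTG in 6.02%, CAGCTG in 13% and CAGATG in 14.4%. All 10 members had a RefSeq window. CAGCTG was also found in Gip, Nts, Sct and a window of Ghrl, CAGATG in Gcg and Sct, and TGCGTCA at the far end of a window of Tph1. These matches describe letters and not binding, which was not measured.

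Levels were compared between genes only per length of exon, as CPM per kb. In sham jejunum secretin was highest, at 86.9 ± 25.4 CPM per kb (SD, n = 3), followed by Chgb at 49.9 ± 15.4 and Sst at 37.4 ± 6.94 CPM per kb. The ranges of these neighbours did not separate Chgb (32.6 to 62.0) from Sst (32.8 to 45.4), while the lowest secretin value, 68.2, was above the highest of Chgb. Cck (15.6 ± 0.457 CPM per kb) and Chga (15.1 ± 2.04 CPM per kb) overlapped each other and lay below these 3. Nts, Ghrl, Gcg and Gip lay between 2.5 and 4.45 CPM per kb with overlapping ranges, and Tph1 was lowest at 1.32 ± 0.543 CPM per kb. In TPN Chgb (51.8 ± 2.52), secretin (44.3 ± 7.53) and Sst (36.4 ± 3.73 CPM per kb) were at the top, and secretin (37.0 to 52.0) overlapped both Chgb (49.2 to 54.2) and Sst (34.1 to 40.7). In starvation secretin (58.4 ± 31.2), Chgb (35.5 ± 8.22) and Sst (18.4 ± 5.13 CPM per kb) were at the top, where the ranges of secretin (40.3 to 94.4) and Chgb (26.1 to 40.4) overlapped and the highest secretin value was that of starvation replicate 3. Gcg had the lowest mean, 1.13 ± 1.13 CPM per kb.

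**Figure D1:**
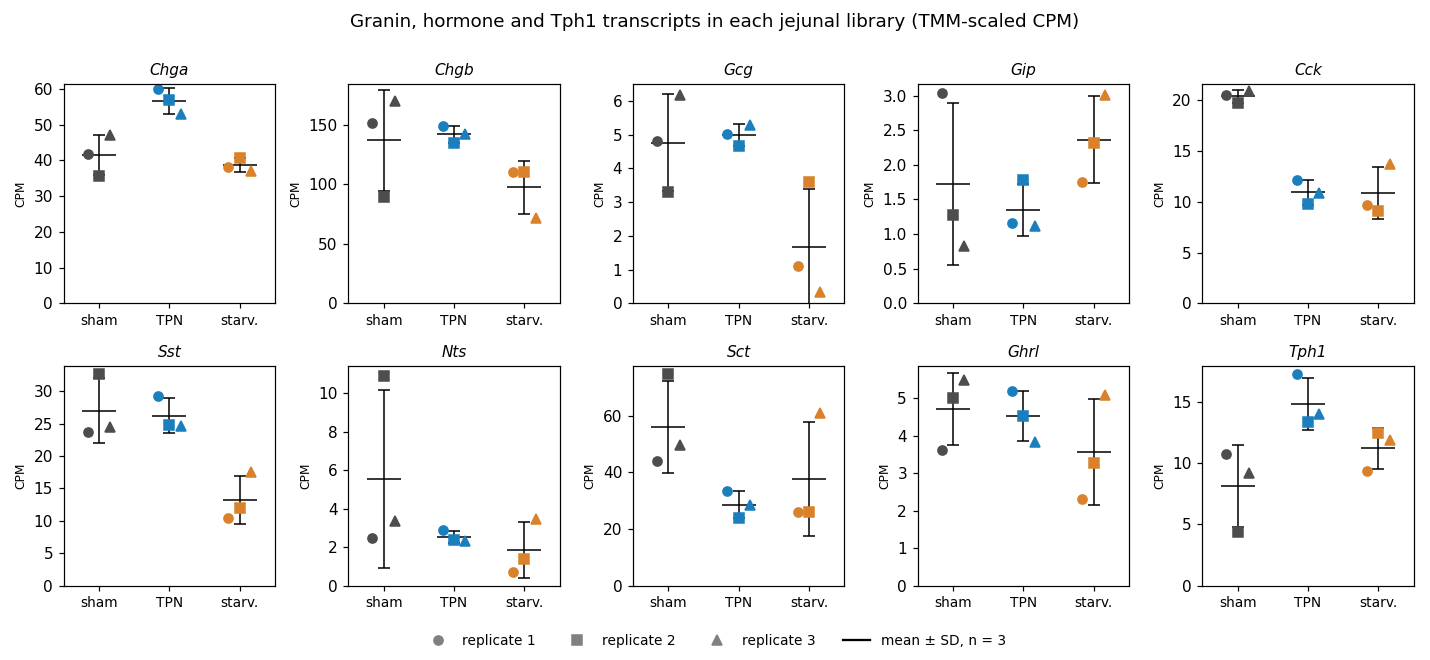
Level of each of the 10 members in CPM (vertical axis, own scale per panel) in sham, TPN and starvation. Points are libraries (3 per group) and bars are mean ± SD, with the lower end stopped at 0. Cck is lower in all TPN and starvation libraries than in any sham library, and Sst is lower in all starvation libraries than in the other groups.

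Few members passed the test in any comparison. The test was edgeR's quasi-likelihood test with a Benjamini-Hochberg adjusted p under 0.05 over all 14668 genes. In TPN against sham 1 of 10 members was lower (Cck) and 0 were higher, where 8.6% of all genes tested were called (3.48% higher and 5.12% lower). In starvation against sham 2 of 10 were lower (Cck and Sst) and 0 higher, against 3.69% of all genes (2.55% higher and 1.14% lower). In TPN against starvation 2 of 10 were higher (Chga and Sst) and 0 lower, against 5.84% of all genes (1.94% higher and 3.9% lower). With 10 members, 1 call is 10 percentage points, so these counts do not set the members apart from the background. Without sham replicate 2 and starvation replicate 3 together, 4, 5 and 3 members were called in the same order. That fit also called 4425, 2949 and 3205 genes in all, against 1261, 541 and 857 in the full set. Calls of members gained in it are thus not particular to them. The unadjusted edgeR p was under 0.05 for 4, 4 and 3 of 10 members in the same order. Of the 14668 genes tested it was under 0.05 for 3939, 3430 and 3385. The median log2 fold change of the members was -0.05 in TPN against sham, -0.53 in starvation against sham and 0.44 in TPN against starvation, where all genes tested had medians of -0.02, -0.01 and -0.03. Groups did not overlap for 4 members in TPN against sham (2 higher and 2 lower), where the background over all genes was 42.7% (21.3% higher and 21.4% lower). They did not overlap for 2 members in starvation against sham, both lower, against a background of 25.1% (13.9% higher and 11.2% lower), and for 5 members in TPN against starvation, all higher, against 33.6% (15.3% higher and 18.3% lower). The 3 comparisons share libraries in pairs, so they are not independent of each other.

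**Figure D2:**
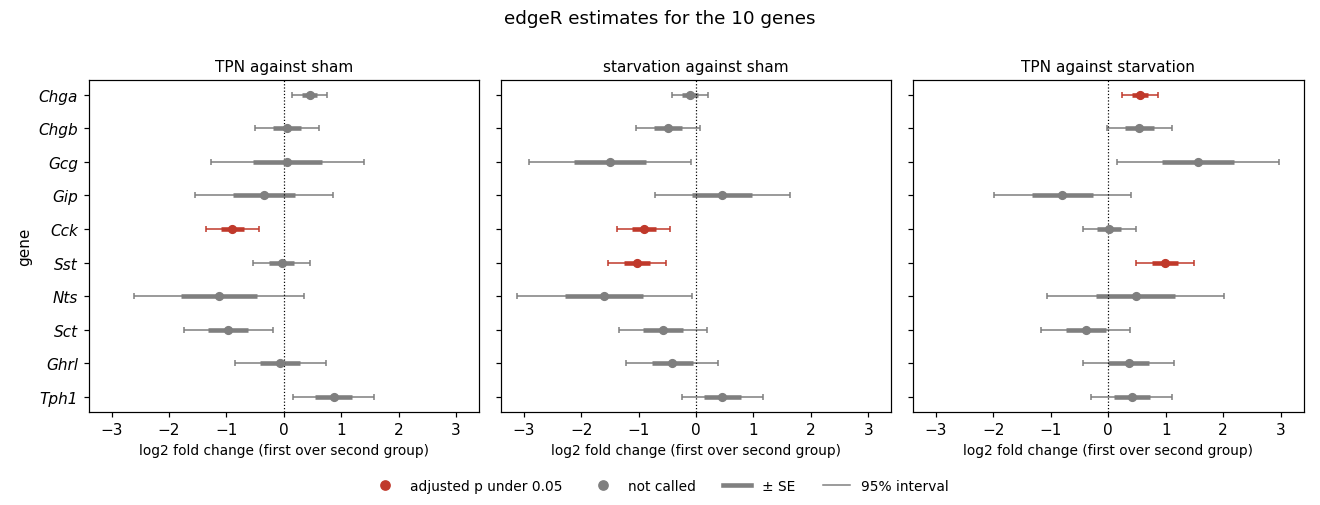
Log2 fold change (horizontal axis) of each member in the 3 comparisons, from edgeR on all 9 libraries. Thick lines are ± SE, thin lines the 95% interval, and red marks an adjusted p under 0.05, which holds for Cck in both comparisons with sham, Sst in both comparisons with starvation, and Chga in TPN against starvation.

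Of the granins, Chga, the general marker of endocrine granules (GRCm38, chromosome 12, 102554969 to 102565028, plus strand), was higher in TPN than in starvation. Chga stood at 41.7, 35.7 and 47.0 CPM in sham, 59.99, 57.0 and 52.9 CPM in TPN and 38.1, 40.7 and 37.0 CPM in starvation. All 3 TPN libraries were above all 6 others, and sham and starvation overlapped. TPN exceeded starvation by a log2 fold change of 0.55 ± 0.137 (SE; 95% interval 0.24 to 0.86, adjusted p = 0.0476), or 1.47-fold. Against sham the TPN difference was 0.45 ± 0.137 (0.14 to 0.76) and missed the threshold (adjusted p = 0.0727), and starvation against sham was -0.10 ± 0.137 (-0.41 to 0.21, adjusted p = 0.689). The call in TPN against starvation was kept only without sham replicate 2 or without starvation replicate 3 and was lost without any other 1 of the libraries, with log2 fold changes of 0.51 to 0.60 and adjusted p of 0.0235 to 0.181 over the 9 fits. Without sham replicate 2 and starvation replicate 3 together it was 0.56 (adjusted p = 0.00435), and Chga in TPN against sham was then called at 0.39 (adjusted p = 0.0152).

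Chgb, the sister granin (chromosome 2, 132781278 to 132795079, plus strand), stood at 151, 89.4 and 170 CPM in sham, 149, 135 and 142 CPM in TPN and 110, 111 and 71.4 CPM in starvation. The sham libraries spanned both other groups, and all 3 TPN libraries were above all 3 starvation libraries. No comparison was called. TPN against starvation was 0.54 ± 0.25 (-0.02 to 1.10, adjusted p = 0.231), close in size to that of Chga but with a wider error. Starvation against sham was -0.49 ± 0.25 (adjusted p = 0.268) and TPN against sham 0.05 ± 0.249 (adjusted p = 0.913). Without sham replicate 2 and starvation replicate 3, Chgb was called lower in starvation than in sham (-0.54, adjusted p = 0.0111) and higher in TPN than in starvation (0.40, adjusted p = 0.0215). Reads of Chga per 100 reads of Chgb were 31.8 ± 7.12 in sham, 39.95 ± 2.56 in TPN and 41.1 ± 9.38 in starvation (SD, n = 3), with overlap.

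Cck encodes cholecystokinin, which I cells release after a meal with fat and protein and which contracts the gallbladder and slows gastric emptying. The gene lies on chromosome 9, 121489824 to 121495694, minus strand. Cck stood at 20.5, 19.7 and 20.9 CPM in sham, 12.2, 9.77 and 10.9 CPM in TPN, and 9.65, 9.08 and 13.8 CPM in starvation. The sham libraries were close together (coefficient of variation 2.92%), and each of the 6 other libraries was below the lowest of them. Cck fell in TPN by 0.89 ± 0.208 on the log2 scale (95% interval of the change -1.36 to -0.43, adjusted p = 0.0329), or 1.86-fold, and in starvation by 0.91 ± 0.208 (-1.38 to -0.45, adjusted p = 0.0464), or 1.88-fold. Both comparisons use the same sham libraries. TPN and starvation differed by 0.02 ± 0.209 (adjusted p = 0.97), with a 95% interval of -0.45 to 0.49.

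The direction of Cck held in all 9 fits that left out 1 library, while its calls did not. In TPN against sham the log2 fold change ran from -0.98 to -0.82 (adjusted p 0.00473 to 0.137), and the call was lost without sham replicate 1 or 3 or any 1 of the TPN libraries. In starvation against sham it ran from -1.15 to -0.80 (adjusted p 0.00732 to 0.149) and the call was lost without any 1 of the libraries other than starvation replicate 3, which had both the most villus tip RNA and the highest Cck of its group. Without sham replicate 2 and starvation replicate 3 together, Cck was called in both, at -0.87 (adjusted p = 0.00227) and -1.14 (adjusted p = 0.00267).

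Sst encodes somatostatin, the D cell hormone that inhibits the release of most other gut hormones and of gastric acid. The gene lies on chromosome 16, 23889573 to 23890958, minus strand. Sst stood at 23.7, 32.8 and 24.6 CPM in sham, 29.3, 24.8 and 24.6 CPM in TPN, and 10.5, 11.9 and 17.5 CPM in starvation. Sham and TPN overlapped, and all 3 starvation libraries lay below all 6 of the others. Sst fell in starvation against sham by 1.03 ± 0.227 on the log2 scale (95% interval of the change -1.53 to -0.52, adjusted p = 0.0422), or 2.04-fold. It was higher in TPN than in starvation by 0.99 ± 0.227 (0.48 to 1.49, adjusted p = 0.0365), or 1.98-fold. TPN against sham was -0.04 ± 0.222 (-0.54 to 0.46, adjusted p = 0.927), a difference whose sign turned with upper quartile factors (0.05) and with scaling to library totals (0.16).

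Among fits without 1 library, Sst in starvation against sham ran from -1.30 to -0.87 (adjusted p 0.00752 to 0.14), and the call was kept only without starvation replicate 3. Sst in TPN against starvation ran from 0.84 to 1.28 (adjusted p 0.00773 to 0.145), and the call was kept only without sham replicate 2 or starvation replicate 3. Without both of those libraries the differences were -1.11 (adjusted p = 0.00203) and 1.27 (adjusted p = 0.000478). Somatostatin is also made by some enteric neurons. Summed neuron markers (12 genes, of which 1 was at 0 in starvation replicate 3 and 0 elsewhere) were 56.8 to 62.3 CPM in sham, 45.1 to 88.1 CPM in TPN and 23.5 to 60.7 CPM in starvation. Their median log2 fold change was -0.80 in starvation against sham and 0.81 in TPN against starvation, with 0 of 12 genes called in either. Starvation replicate 1 had neuron markers at the sham level (60.7 CPM) and the lowest Sst of all 9 libraries, and starvation replicate 3 had the fewest neuron markers (23.5 CPM) and the highest Sst of its group. The part of neuronal RNA in the group difference was not tested.

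Sct encodes secretin, which S cells release on acid and which drives bicarbonate secretion (chromosome 7, 141278330 to 141279133, minus strand). Sct stood at 44.0, 74.7 and 49.6 CPM in sham, 33.5, 23.8 and 28.3 CPM in TPN, and 26.1, 26.0 and 60.9 CPM in starvation. All 3 TPN libraries were below all 3 sham libraries, and starvation spanned both. TPN against sham was -0.97 ± 0.346 (-1.75 to -0.19), which missed the threshold (adjusted p = 0.11), and starvation against sham was -0.58 ± 0.344 (adjusted p = 0.335). The 2 highest values were in sham replicate 2 and starvation replicate 3, the libraries with the most villus tip RNA, whose part in them was not tested. Without these 2 libraries Sct was called lower in TPN (-0.67, adjusted p = 0.00596) and in starvation (-0.84, adjusted p = 0.00622). That fit called 4425 and 2949 genes in these comparisons with sham. Sct in TPN against starvation turned from -0.39 to 0.18, uncalled in both fits.

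Nts encodes neurotensin, a peptide of N cells that promotes fat absorption (chromosome 10, 102481756 to 102490486, minus strand). Nts stood at 2.45, 10.9 and 3.33 CPM in sham, 2.88, 2.38 and 2.32 CPM in TPN, and 0.718, 1.37 and 3.47 CPM in starvation, on 9 to 102 reads a library. The highest value of sham and that of starvation again came from sham replicate 2 and starvation replicate 3, and all groups overlapped in part. No comparison was called; the log2 fold change against sham was -1.12 ± 0.661 in TPN (adjusted p = 0.306) and -1.60 ± 0.68 in starvation (adjusted p = 0.195). Without sham replicate 2 and starvation replicate 3 these were -0.15 (adjusted p = 0.787) and -1.49, which was then called lower in starvation (adjusted p = 0.0455).

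Gcg, whose product is cut in L cells to the incretin GLP-1 and the growth-promoting GLP-2, lies on chromosome 2, 62474530 to 62483650, minus strand. Gcg stood at 4.81, 3.31 and 6.16 CPM in sham, 5.03, 4.65 and 5.29 CPM in TPN, and 1.12, 3.59 and 0.347 CPM in starvation. The lowest value rests on 3 reads, for which the exact 95% Poisson interval is 0.619 to 8.77 reads, covering counting error only. The lowest Gcg and the lowest Chgb were both in starvation replicate 3, the library low in crypt markers, whose part in them was not tested. Starvation lay below TPN without overlap but reached into the sham range through starvation replicate 2. The differences, -1.50 ± 0.628 against sham (-2.91 to -0.09, adjusted p = 0.189) and 1.56 ± 0.628 for TPN against starvation (0.16 to 2.97, adjusted p = 0.174), were not called. Without starvation replicate 2 the latter was 2.699 (adjusted p = 0.0427), and without sham replicate 2 and starvation replicate 3 it was 1.17 (adjusted p = 0.0854).

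Gip, the other incretin, from K cells (chromosome 11, 96024545 to 96030831, plus strand), and Ghrl, the hunger hormone ghrelin, made mostly in the stomach (chromosome 6, 113716119 to 113719880, minus strand), were low and overlapped in every comparison. Gip stood at 3.04, 1.28 and 0.833 CPM in sham, 1.15, 1.79 and 1.12 CPM in TPN, and 1.76, 2.32 and 3.01 CPM in starvation, on 10 to 31 reads a library. Its log2 fold change was -0.35 ± 0.537 in TPN against sham (95% interval -1.55 to 0.85, adjusted p = 0.71) and 0.45 ± 0.525 in starvation against sham (-0.72 to 1.63, adjusted p = 0.637). Ghrl stood at 3.63, 5.01 and 5.50 CPM in sham, 5.19, 4.53 and 3.84 CPM in TPN, and 2.31, 3.27 and 5.09 CPM in starvation. Its log2 fold changes were -0.06 ± 0.352 in TPN (adjusted p = 0.929), turning to 0.02 with upper quartile factors and 0.13 with library totals, and -0.41 ± 0.357 in starvation (adjusted p = 0.511). Exons of Ghrl overlap those of Gm26982 and Gm44033 on the other strand, and no step that marks the strand is named, so reads of these genes cannot be told apart.

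Tph1, tryptophan hydroxylase, is the rate-limiting enzyme of serotonin synthesis in enterochromaffin cells (chromosome 7, 46644641 to 46672537, minus strand). Tph1 stood at 10.8, 4.37 and 9.25 CPM in sham, 17.3, 13.4 and 14.01 CPM in TPN, and 9.33, 12.5 and 11.9 CPM in starvation. All 3 TPN libraries were above all 6 others. The log2 fold change of TPN against sham was 0.87 ± 0.316 (0.16 to 1.58) and missed the threshold (adjusted p = 0.115), and starvation against sham was 0.46 ± 0.317 (adjusted p = 0.407). Without sham replicate 2, which held the lowest value, and starvation replicate 3, Tph1 in TPN against sham was called at 0.62 (adjusted p = 0.0367).

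Levels relative to the granins give each hormone per amount of Chga and Chgb RNA in the same library, and do not move with the scaling of libraries. Most of these granin reads were of Chgb (1539 of 1964 in sham replicate 1). The ratios are not levels per cell of the type that makes each hormone. The ratios do move with the granins themselves, and Chga was called higher in TPN than in starvation. Each hormone's reads were divided by the summed reads of Chga and Chgb (937 to 2602 reads a library) and tested with a two-sided exact permutation test on the log2 ratio, for which 3 against 3 libraries cannot give a p below 0.1. No ratio passed over the 27 tests made (9 ratios, including Chga to Chgb, in 3 comparisons), for which the lowest Benjamini-Hochberg adjusted value was 0.3. Cck stood at 10.6, 15.8 and 9.65 reads per 100 granin reads in sham, 5.85, 5.10 and 5.58 in TPN, and 6.51, 5.997 and 12.7 in starvation. TPN lay below sham without overlap (log2 difference -1.10, exact permutation p = 0.1), while starvation overlapped sham through starvation replicate 3 (-0.57, exact permutation p = 0.3).

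Sst stood at 12.3, 26.2 and 11.3 reads per 100 granin reads in sham, 14.1, 12.9 and 12.6 in TPN, and 7.05, 7.88 and 16.1 in starvation. These overlapped in every comparison, so the separation of Sst in CPM was not seen relative to the granins in the full set (starvation against sham -0.67, exact permutation p = 0.3, and TPN against starvation 0.45, exact permutation p = 0.4). Starvation overlapped the other groups through starvation replicate 3 alone. The other starvation libraries, at 7.05 and 7.88, lay below all sham and TPN libraries. The 2 highest ratios again came from sham replicate 2 and starvation replicate 3, in which Chgb was lowest of its group. Sct per 100 granin reads was 14.3 ± 1.83 in TPN, below all libraries of sham (35.1 ± 21.3) and of starvation (30.3 ± 22.4; exact permutation p = 0.1 for both). Tph1 was 4.45 ± 1.07 in sham, 7.48 ± 0.717 in TPN and 8.504 ± 2.36 in starvation, with both treatments above all sham libraries (log2 differences 0.77 and 0.92, exact permutation p = 0.1 for both). Over Chga alone the differences were 0.51 and 0.65, and both treatments overlapped sham. There sham replicate 1 (110 reads of Tph1 to 425 of Chga) lay above TPN replicate 2 (112 to 478) and starvation replicate 1 (117 to 478). Gcg was lower in starvation than in either other group without overlap (1.15 ± 1.08 against 2.66 ± 0.175 in sham and 2.51 ± 0.168 in TPN, exact permutation p = 0.1 for both). The gap was narrow, with starvation replicate 2 at 2.37 (34 reads of Gcg) and the lowest TPN library at 2.41. Over Chga alone starvation overlapped TPN, with starvation replicate 2 (34 reads of Gcg to 386 of Chga) above TPN replicate 2 (39 to 478). Starvation replicates 1 and 3 were at 0.753 and 0.320, on 14 and 3 reads.

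**Figure D3:**
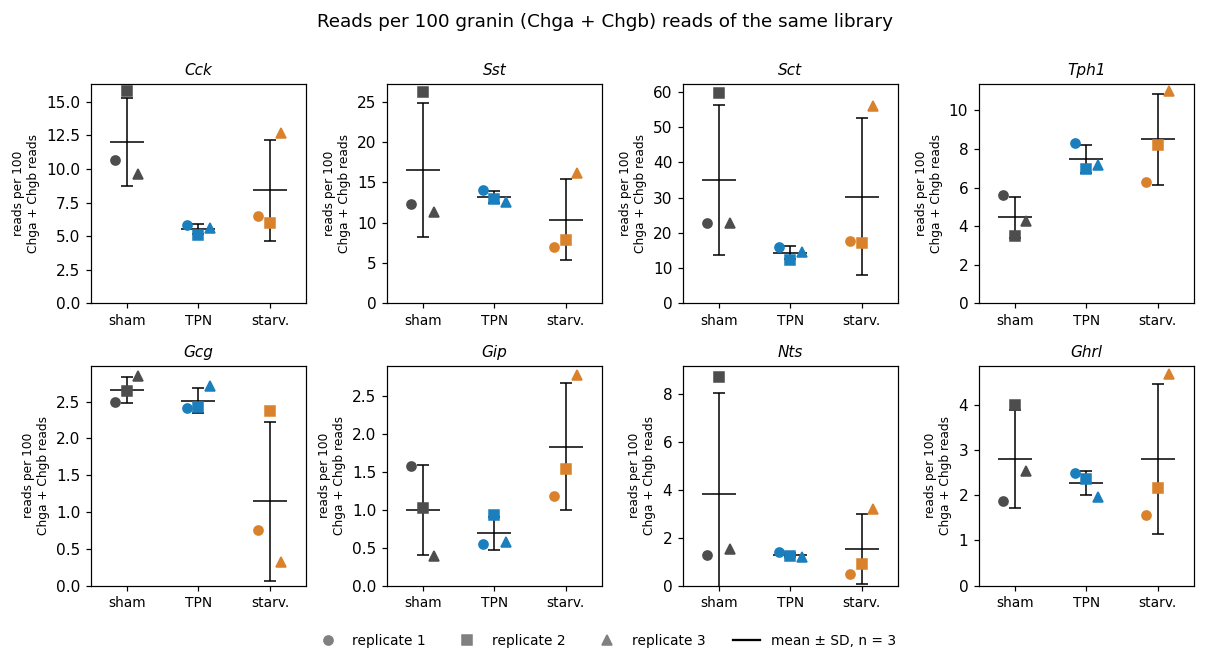
Reads of each hormone and of Tph1 per 100 reads of Chga plus Chgb (vertical axis, own scale per panel) in each library, with the group mean ± SD (n = 3). Cck in TPN, at 5.10 to 5.85, lies below the sham libraries, and Sst overlaps in all groups.

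The share of each hormone in the hormone pool was also taken. Of the summed reads of the 7 peptide hormones (545 to 1384 a library), Sst took 23.2%, 22.2% and 22.2% in sham, 32.8%, 34.6% and 32.2% in TPN, and 20.1%, 20.7% and 16.8% in starvation. The 3 groups did not overlap, and the exact binomial 95% intervals of the TPN libraries (29.2% to 38.5% over the 3) lay above those of the sham libraries (20.0% to 25.9%), while those of starvation (14.4% to 24.4%) overlapped sham. These intervals cover counting error only. TPN exceeded sham by 10.7 percentage points on average, between 10 and 11.2 without any 1 of the 6 libraries. Sct took 43.1% to 50.6% of hormone reads in sham, 33.2% to 37.5% in TPN and 45.1% to 58.5% in starvation. TPN lay below both other groups, which overlapped. Cck took 13.4% to 20.1% in sham, 13.6% to 14.3% in TPN and 13.2% to 18.5% in starvation, and all 3 overlapped. Ghrl took 3.4% to 4.96% in sham, 5.03% to 6.31% in TPN and 4.44% to 5.69% in starvation, with TPN above sham and starvation overlapping both. Gcg took 2.24% to 5.56% in sham, 5.63% to 6.92% in TPN and 0.334% to 6.24% in starvation, again with TPN above sham by a narrow gap. Gip took 0.751% to 2.98% in sham, 1.29% to 2.49% in TPN and 2.89% to 4.04% in starvation, which lay above TPN. Nts took 2.40% to 7.37% in sham, 3.04% to 3.32% in TPN and 1.38% to 3.34% in starvation, and all 3 overlapped. A share moves with the other hormones in the sum: Sst in CPM overlapped between TPN and sham, while Sct and Cck in CPM were lower. The share was looked at after the data had been seen and was given no test.

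**Figure D4:**
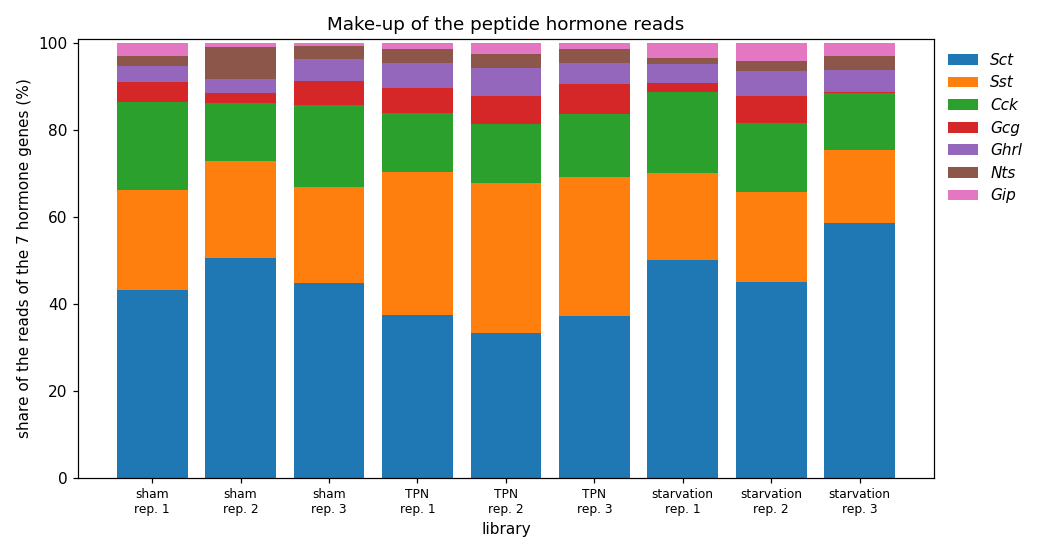
Share in percent (vertical axis) of the reads of the 7 peptide hormones taken by each hormone, 1 stacked bar per library. Secretin and somatostatin fill most of every bar, and somatostatin is at 32.2% to 34.6% in TPN against 22.2% to 23.2% in sham.

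Other genes of endocrine cells were described by list. In the list of 11 secretogranins and granule proteins 0 genes were called in any of the 3 comparisons, with median log2 fold changes of 0.11 in TPN against sham, -0.53 in starvation against sham and 0.64 in TPN against starvation. Scg2, secretogranin II, stood at 37.6, 78.2 and 36.3 CPM in sham, 33.0, 26.6 and 44.8 CPM in TPN, and 24.4, 23.7 and 16.2 CPM in starvation. All 3 starvation values of Scg2 were below all others, and the difference from sham of -1.24 ± 0.33 missed the threshold (adjusted p = 0.0709). Scg2 is also expressed in neurons, whose markers are given above.

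Among 18 endocrine transcription factors, 16 were tested and 0 called, with medians of 0.37, 0.21 and 0.24 in the same order. Neurod1, which directs late endocrine differentiation, stood at 5.10, 4.37 and 7.58 CPM in sham, 7.99, 11.3 and 7.45 CPM in TPN and 3.99, 6.97 and 4.74 CPM in starvation; its log2 fold change of TPN against sham was 0.64 ± 0.325 (adjusted p = 0.238). Of 6 genes that process prohormones 5 were tested and 0 called. Pcsk1, the convertase that cuts proglucagon to GLP-1, stood at 9.28 to 11.7 CPM in sham, 11.8 to 15.8 CPM in TPN and 8.38 to 14.3 CPM in starvation. Cpe, which trims the cut peptides, ran at 289 CPM in sham replicate 2, the library with the most smooth muscle RNA, and at 19.1 to 70.1 CPM elsewhere.

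No gene was called in any comparison among the nutrient sensors of endocrine cells (11 of 17 tested) or the receptors of the member hormones (8 of 14 tested). Of the sensors, the short-chain fatty acid receptor Ffar2 stood at 5.44 to 9.72 CPM in sham, 7.39 to 8.65 CPM in TPN and 3.47 to 6.76 CPM in starvation. Of the receptors, Glp2r, which binds GLP-2, stood at 28.9 to 40.8 CPM in sham, 27.1 to 36.1 CPM in TPN and 17.7 to 35.3 CPM in starvation. The cholecystokinin receptor Cckar, which pancreatic acinar cells also express, stood at 83.8 CPM in TPN replicate 2, 12.7 CPM in sham replicate 1 and 9.41 CPM in starvation replicate 1, the 3 libraries with the most acinar RNA, and at 0.211 to 1.81 CPM in the other 6.

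Of 15 other gut and islet-type hormones, 7 were tested and 0 called. The following 5 were named after their values were seen. Pyy, which L cells of the distal gut make, had 25 reads in all 9 libraries, and Gast and Insl5 had 0 reads. Ins1 stood at 21.8 CPM and Ins2 at 11.1 CPM in TPN replicate 2, and Ins1 at 4.23 CPM in starvation replicate 1, with Ins1 at 0 to 0.196 CPM in the other 7. Pancreatic islets also make Gcg, Sst and Chga. TPN replicate 2 did not have the highest value of its group for any of these 3 genes, with Gcg at 4.65, Sst at 24.8 and Chga at 57.0 CPM, and the part of islet RNA in their levels was not tested. Without TPN replicate 2, Sst in TPN against starvation was 1.03 (adjusted p = 0.114) and its share of hormone reads in the other TPN libraries was 32.2% and 32.8%.

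Of 9 genes listed for serotonin handling, 1 was called higher in starvation against sham (Slc18a1), where 2.55% of all genes were. Maoa was the only 1 called lower in TPN, against sham (5.12% of all genes) and against starvation (3.9%). That list also holds the receptor genes Htr3a and Htr4 and the channel gene Trpa1. Slc18a1 encodes VMAT1, which loads serotonin into the granules of enterochromaffin cells. It stood at 8.83, 6.72 and 7.33 CPM in sham, 8.16, 7.39 and 9.61 CPM in TPN, and 12.2, 16.5 and 20.7 CPM in starvation, where all 3 libraries were above all others. Slc18a1 rose in starvation against sham by 1.11 ± 0.249 (adjusted p = 0.0449), a call that was lost in 7 of 9 fits without 1 library (0.88 to 1.29; adjusted p 0.036 to 0.124), being kept only without starvation replicate 1 or 3. The monoamine oxidase Maoa, which enterocytes express and which breaks down serotonin, stood at 490, 395 and 490 CPM in sham, 180, 159 and 161 CPM in TPN and 432, 475 and 459 CPM in starvation. Maoa fell in TPN against sham by 1.46 ± 0.162 (adjusted p = 0.00183) and was lower in TPN than in starvation, at -1.45 ± 0.162 (adjusted p = 0.00204), and both calls held without any 1 of the 9 libraries. The serotonin transporter Slc6a4 stood at 43.5 to 57.1 CPM in sham, 33.9 to 46.4 CPM in TPN and 46.8 to 67.1 CPM in starvation, and the decarboxylase Ddc at 66.3 to 77.4, 50.3 to 56.0 and 42.9 to 77.6 CPM; neither was called.

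Of 6 genes for peptidases that cut the hormones after release, 1 was called lower in TPN against sham (Mme), where 5.12% of all genes were, and 3 in TPN against starvation (Mme, Dpp4 and Enpep), where 3.9% were. None of the 6 was called in starvation against sham, and 0 were called higher in any comparison. Of those not called, Ace was at -0.70 ± 0.331 (adjusted p = 0.212), Ide at -0.27 ± 0.197 (adjusted p = 0.415) and Fap at 1.09 ± 0.61 (adjusted p = 0.281) in TPN against sham, and all 3 TPN libraries of Fap were above the sham libraries. Mme encodes neprilysin, an endopeptidase of the brush border. It stood at 1940, 1910 and 1800 CPM in sham, 805, 630 and 700 CPM in TPN, and 1460, 1880 and 3030 CPM in starvation. Mme fell in TPN against sham by 1.40 ± 0.268 (adjusted p = 0.0157) and was at -1.58 ± 0.269 in TPN against starvation (adjusted p = 0.0129). Dpp4, which inactivates GLP-1 and GIP, stood at 395, 529 and 429 CPM in sham, 276, 239 and 244 CPM in TPN and 407, 676 and 1140 CPM in starvation. Dpp4 was lower in TPN than in starvation at -1.55 ± 0.329 (adjusted p = 0.0279), and TPN against sham was -0.83 ± 0.324 (adjusted p = 0.137). Enpep, aminopeptidase A, was at -0.91 ± 0.213 in TPN against starvation (adjusted p = 0.0384). Enterocytes carry the products of Mme, Dpp4 and Enpep on their brush border. Of 8 enterocyte markers 3 were called lower in TPN in both comparisons (Alpi, Fabp2 and Anpep). In the 9 fits without 1 library, the calls against sham were lost in 6 for Alpi, 4 for Fabp2 and 3 for Anpep. Those against starvation were lost in 4, 3 and 3. The summed level of the 8 markers was 7300 to 8320 CPM in TPN against 14700 to 17300 CPM in sham and 11700 to 25000 CPM in starvation. The part of the enterocyte RNA in the peptidase differences was not tested. The calls of Mme were lost without sham replicate 1 or 3 (against sham) or any 1 of the TPN libraries (both comparisons), that of Dpp4 without sham replicate 3, starvation replicate 2 or any 1 of the TPN libraries, and that of Enpep in all fits but those without sham replicate 2 or starvation replicate 1.

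Of other marker lists, 0 genes were called in any comparison for goblet cells (7 tested), stem cells (6), smooth muscle (10), villus tip (8), pancreatic acinar cells (10) and pancreatic islets (2 of 8 tested). Paneth cell markers had 1 of 4 tested genes lower in starvation against sham (Itln1), where 1.14% of all genes were. They had 2 higher in TPN against starvation (Mmp7 and Itln1), where 1.94% of all genes were. Without starvation replicate 3 these calls were kept, at -1.28 (adjusted p = 0.00395) for Itln1 against sham and 2.01 (adjusted p = 0.00669) for Mmp7 and 1.23 (adjusted p = 0.00335) for Itln1 in TPN against starvation. The call of Itln1 against sham was lost without sham replicate 3, that of Itln1 in TPN against starvation without TPN replicate 1 or 3, and that of Mmp7 without any 1 of the TPN libraries or starvation replicate 2, with adjusted p of up to 0.0657, 0.0599 and 0.101.

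**Figure D5:**
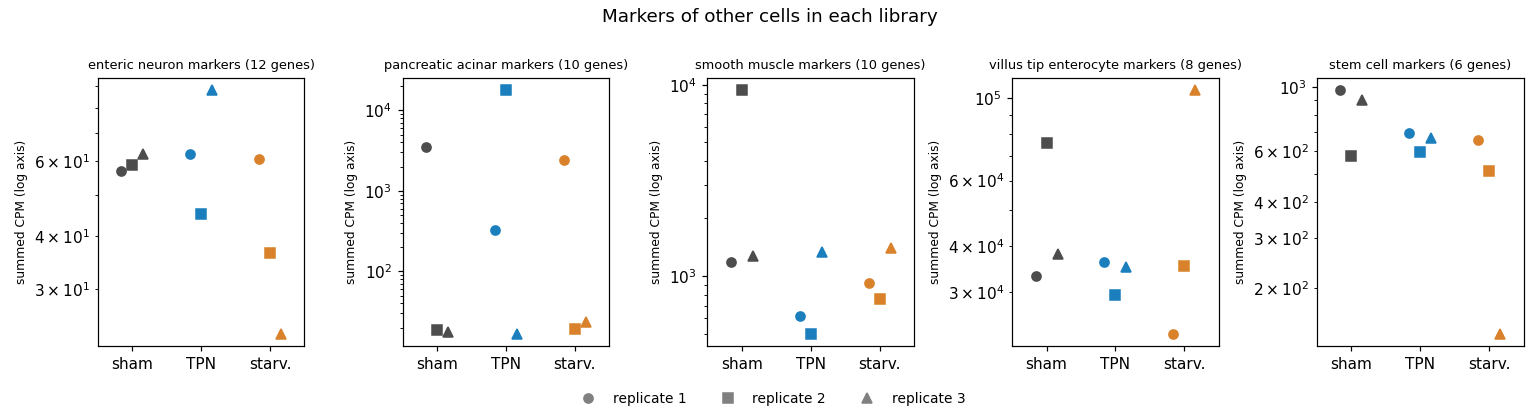
Summed CPM (vertical axis, log scale) of marker lists of other cell types in each library by group. Smooth muscle markers are highest in sham replicate 2 (9370 CPM), acinar markers in TPN replicate 2 (17800 CPM) and villus tip markers in starvation replicate 3 (105000 CPM).

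Among the members themselves, the levels of some moved together across the 9 libraries, which are described with no test since the libraries share groups and cell make-up. Pearson's r of log2 CPM was 0.84 between Chgb and Gcg, 0.70 between Chga and Chgb and 0.69 between Chga and Tph1. Cck and Sct (0.83), Nts and Sct (0.81), Nts and Sst (0.80), Nts and Ghrl (0.79) and Sst and Ghrl (0.78) formed the other high pairs, and Sct and Tph1 had -0.65. The 5 genes whose pattern over the 9 libraries was most like that of Chga were Adgrg7, Isx, Prlr, Nmbr and Gm21973, with r of 0.979 to 0.981. They were picked for the highest r among all tested genes at a mean log2 CPM of at least 0. Values of r this high are thus partly a product of that choice. None of the 5 is in the gene lists used here, and their expression in endocrine cells was not tested.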

How the data were processed

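The authors deposited raw counts per gene; per the submitters' processing notes the tools included STAR 2.7.2e, featureCounts 2.0.0, cutadapt 2.9 and FastQC 0.11.8, and DESeq2 1.32.0, on GRCm38 (mm10). How strand and multiply mapped reads were handled is not given in the sources used here. A further 9 columns matched no labelled sample and were not used.

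Counts of all 9 libraries were fitted in R 4.3.3 with edgeR 4.0.16 (filterByExpr, which removed 7200 of 21868 genes, TMM factors, quasi-likelihood fit, 6 residual degrees of freedom). A gene was called at a Benjamini-Hochberg adjusted p under 0.05 over the 14668 genes tested. The fit was also run on simulated counts with a smaller spread between libraries than in these data and no outlying libraries. That run does not bear on how firm the calls are. DESeq2 1.42.0, limma 3.58.1 and other settings served as alternatives. P-values set group differences against the spread between libraries within groups, estimated over all 3 groups together (biological coefficient of variation 0.314). A comparison thus also depends on the libraries of the group outside it. No pair of libraries of the same group agreed within sampling noise (chi-square per gene 7.74 to 118). Positions and exon lengths came from GENCODE M21.

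The 10 members and the 18 other lists (170 genes) were chosen with earlier results of these data known. All members were named, with each called gene and at most the 3 most abundant uncalled genes of a list, and the 5 genes most correlated with Chga at a mean log2 CPM of at least 0. The result of a further marker list is not reported here.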

Additional observations from a re-analysis of the deposited data

How the results depend on the processing

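The calls of the members moved with the fit, and so did some of their estimates. Over 13 other settings Cck in TPN against sham ran from -0.90 to -0.71, while Nts, on low counts, ran from -1.60 to 0.28. In fits without 1 library, 0 to 3 members were called in TPN against sham, 0 to 3 in starvation against sham and 0 to 2 in TPN against starvation, and 216 to 3182, 32 to 1739 and 124 to 1248 genes in all. In the same order of comparisons, genes called were 2421, 1654 and 1791 with DESeq2, 2774, 2 and 545 when only the 2 groups compared were fitted, 258, 30 and 144 at an adjusted p under 0.01, and 4425, 2949 and 3205 without the pair sham replicate 2 and starvation replicate 3. A fit without the 4 libraries with acinar RNA keeps TPN replicate 3 as the only TPN library, so only estimates are given for it. Scaling to library totals gave 353 in starvation against sham, and a smooth muscle covariate 521 in TPN against sham and 203 in starvation against sham. Members called were 0, 1 and 1 with library totals and 3, 0 and 1 with only the groups compared. There was 1 in starvation against sham with RLE factors, 2 in TPN against sham with DESeq2 and 1 in TPN against starvation with voom. Without the filter 1 was called in each comparison with starvation. Under the covariate 0 were called in both comparisons with sham, where 4 and 5 were called without the pair of libraries. At 0.01 the count was 0 in all 3. Replicate numbers are shared between groups, but same-numbered libraries did not deviate together (correlations -0.3 to 0.378); with a replicate block 556, 71 and 386 genes and 0, 0 and 0 members were called.

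Signs that turned were all of uncalled differences. In TPN against sham Sst went to 0.047 with upper quartile factors, 0.16 with library totals, 0.24 with the covariate and 0.16 without the pair; Ghrl to 0.022, 0.13, 0.044 and 0.020; Chgb to -0.34 with the covariate and -0.14 without the pair; Gcg to -0.38 and -0.10; Nts to 0.28 with the covariate; and Gip to 0.090 without the acinar libraries. In TPN against starvation Sct went to 0.18 without the pair, and Cck to -0.071, Nts to -0.059 and Ghrl to -0.12 without the acinar libraries. All values without the acinar libraries rest on TPN replicate 3 alone for the TPN group. In fits without 1 library the ranges spanning 0 were -0.18 to 0.24 for Chgb, -0.14 to 0.30 for Gcg, -0.68 to 0.35 for Gip, -0.13 to 0.12 for Sst and -0.22 to 0.067 for Ghrl in TPN against sham, and -0.091 to 0.28 for Cck and -0.60 to 0.19 for Sct in TPN against starvation. The cause was not tested. Leaving out libraries for the somatostatin share was an alternative chosen after seeing the data, and the share differences were then 10 to 11.2, -4.08 to -2.11 and 12.8 to 14.8 percentage points. Low counts of Gip (10 to 31 reads a library), Nts and Gcg limit what can be seen in them.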
